A study of Homo sapiens with 6 samples.

Results

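The replication-dependent histone genes were taken as every gene symbol in the count tables that carries the older cluster nomenclature for histones: HIST, a cluster number from 1 to 4, and one of the classes H1, H2A, H2B, H3 or H4. This rule found 73 of the 25680 gene symbols. By class they were 6 genes for the linker histone H1, 18 for H2A, 20 for H2B, 14 for H3 and 15 for H4. By cluster, 56 lay in HIST1 on chromosome 6, 13 in HIST2 and 3 in HIST3 on chromosome 1, and 1 in HIST4 on chromosome 12. The reference annotation lists 3 of the 73 as pseudogenes (HIST1H2APS1, HIST2H2BA and HIST2H2BC).

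The libraries came from U87, an established human glioblastoma line of genotype WT. All cells were incubated at 37C for 1 h with 500 nM of EPP6, a cyclic peptide carrying the dye rhodamine, and then sorted by flow cytometry. High uptake denotes the 30% of cells with the brightest rhodamine signal and low uptake the 30% with the dimmest, with 3 libraries in each group, numbered 2, 3 and 4. Both groups had received the peptide, and no library of untreated cells was analysed here.

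Nucleosomes wrap DNA around a core of H2A, H2B, H3 and H4, and H1 binds the DNA between them. Cycling cells make most of this protein during S phase from clustered, intronless genes, which are transcribed at the histone locus body under the coactivator NPAT. Their mRNAs characteristically end in a stem-loop bound by the protein SLBP in place of a poly(A) tail, and are degraded when DNA synthesis stops. Some of these genes also make polyadenylated mRNA, for which HIST1H2BK, HIST1H2BD, HIST1H2AC, HIST1H1C and HIST2H2BE are known examples, and replacement histones such as H2AFZ and H3F3B are made through the whole cycle from polyadenylated mRNA.

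The stem-loop is the feature that sets these transcripts apart from other mRNAs, so some of its sites are shown. They are from members named in the results below and from HIST1H2AG, which holds another form of the stem-loop. GENCODE transcripts (version 29) of all 73 members were searched on the transcript strand for 16 bases of stem, loop and stem. The pattern left free the stem and loop bases that vary between histone genes. The pattern was found in 29 of the 73 members and in 38 of all 57133 annotated genes (0.0665%). Each site is written 5′ to 3′ with 5 flanking bases on each side and the stem-loop in capitals.

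HIST2H2BE: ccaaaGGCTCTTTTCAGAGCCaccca

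HIST1H2AC: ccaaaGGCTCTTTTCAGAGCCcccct

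HIST3H2A: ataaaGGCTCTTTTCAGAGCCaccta

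HIST1H2BD: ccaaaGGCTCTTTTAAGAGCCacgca

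HIST1H4H: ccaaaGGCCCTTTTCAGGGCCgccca

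HIST1H2AG: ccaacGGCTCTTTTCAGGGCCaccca

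These sites show the 4 distinct stem-loops that were found. The one of HIST2H2BE, HIST1H2AC and HIST3H2A occurred in 17 members, that of HIST1H2BD in 5, that of HIST1H4H in 5, all of them H4 genes, and that of HIST1H2AG in 2. Many of the other annotated transcripts, those of HIST1H2BK and HIST1H3B among them, stop at the end of the coding part, so the lack of a match says nothing about the mRNA. The annotated transcripts of 14 members run on past the stem-loop and hold AATAAA or ATTAAA, the usual poly(A) signals, in their last 50 bases. HIST2H2BE runs on for 1729 bases after its stem-loop, HIST1H2AC for 1128 and HIST3H2A for 390, and all of these have such a signal. Their searched transcripts are 2194, 1668 and 895 bases long. The gene models that were counted have 2223, 546 and 496 bases, by the lengths that the authors' length-scaled levels imply. Those of HIST1H2AC and HIST3H2A cannot hold the whole transcript, so their counts need not cover the part with the poly(A) signal.

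Total counts per library were between 13712263 (high uptake replicate 3) and 40742857 (high uptake replicate 2). Genes that mark the U87 line were present (VIM, CD44, NES, CHI3L1 and SPARC, at 18.7 to 11100 CPM, counts scaled to a library of 1000000). The astrocyte markers GFAP, S100B and AQP4 were under 1 CPM in every library. Of the immune markers, PTPRC, CD3E and CD14 were under 1 CPM, while CD68 reached 283 CPM. Epithelial markers summed to 1.96 to 2.89 CPM, endothelial markers to 1.05 to 1.73 CPM and neuronal markers to 26.4 to 42.5 CPM. Of these markers, SPARC of the U87 list and SNAP25 of the neuronal list passed the edgeR test, both higher in high uptake, with log2 fold changes of 0.56 (adjusted p = 0.00395) and 0.80 (adjusted p = 0.00987). Their part in any result below was not tested.

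Histone mRNA was scarce in these libraries. The 73 members together received 1419 to 3731 counts per library, which is 0.00905% to 0.0103% of all counts. Counts were seen for 65 members, 53 of them in all 6 libraries, and 56 to 63 members had counts in any 1 library. The remaining 8 had no count in any library: HIST1H1T, HIST1H2AA, HIST1H2BA, HIST3H3, HIST1H4F, HIST1H4G, HIST1H4K and the pseudogene HIST1H2APS1. HIST1H1T, HIST1H2AA, HIST1H2BA and HIST3H3 encode histones known from the testis. HIST1H4K has no stretch of 50 bases of its own, since all of them also occur in HIST1H4J, so its 0 carries no limit. For the other genes, a count of 0 allows up to 3 counts, or 0.0743 CPM in the deepest library and 0.223 CPM in the shallowest, and this limit covers counting error only.

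By class, counts were seen for 5 of 6 H1, 16 of 18 H2A, 19 of 20 H2B, 13 of 14 H3 and 12 of 15 H4 genes. By cluster, counts were seen for 49 of 56 genes of HIST1, all 13 of HIST2, 2 of 3 of HIST3 and the single gene of HIST4. The minimum used for the test (10 counts in a library of median size, or 0.361 CPM, in at least 3 libraries) was passed by 32 of the 73 members, or 43.8%, against 56.8% of all genes. The 32 were 4 H1, 8 H2A, 10 H2B, 6 H3 and 4 H4 genes. No other member had more than 65 counts over the 6 libraries. Of the 32, 22 reached the minimum in all 6 libraries. HIST1H3B reached it in low uptake libraries alone, so it could enter the test only with a difference.

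Levels were uneven among members. Per length of gene model (FPKM, counts scaled to library size and gene length, as the authors computed them), HIST1H2BK was highest at 36.7 to 48.3 FPKM and HIST1H1C, which encodes a linker histone, next at 26.9 to 34.1 FPKM. HIST3H2A followed at 6.38 to 11.3 FPKM and HIST1H2AC at 6.26 to 10.2 FPKM, ranges that overlap. The median over the 32 tested members was 1.21 FPKM and the lowest mean, that of HIST2H2BF, was 0.388 FPKM. HIST1H2BK took 34.0% to 42.8% of all member counts and HIST1H1C 21.5% to 25.2%, so that these genes together held 55.9% to 65.0%. The 5 members of highest mean CPM, which add HIST1H2AC, HIST3H2A and HIST2H2BE, held 67.8% to 78.7%.

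Some replacement and variant histones stood well above the members per length, and others did not. H2AFZ, a variant of H2A, was at 425 to 568 FPKM and H3F3B, which encodes the replacement histone H3.3, at 163 to 196 FPKM. H2AFY was at 79.7 to 82.0 FPKM, whereas the mean of HIST1H2BK was 43.0 FPKM. H1FX, at 35.5 to 53.6 FPKM, overlapped HIST1H2BK. H3F3A (13.9 to 15.7 FPKM) and H1F0 (7.42 to 10.5 FPKM) lay below HIST1H2BK and HIST1H1C. Whether poly(A) RNA was selected before sequencing is not given in the sources used here, and mRNA without a tail is largely lost where it is. The levels of the members are therefore levels of what this library preparation captured.

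**Figure D1:**
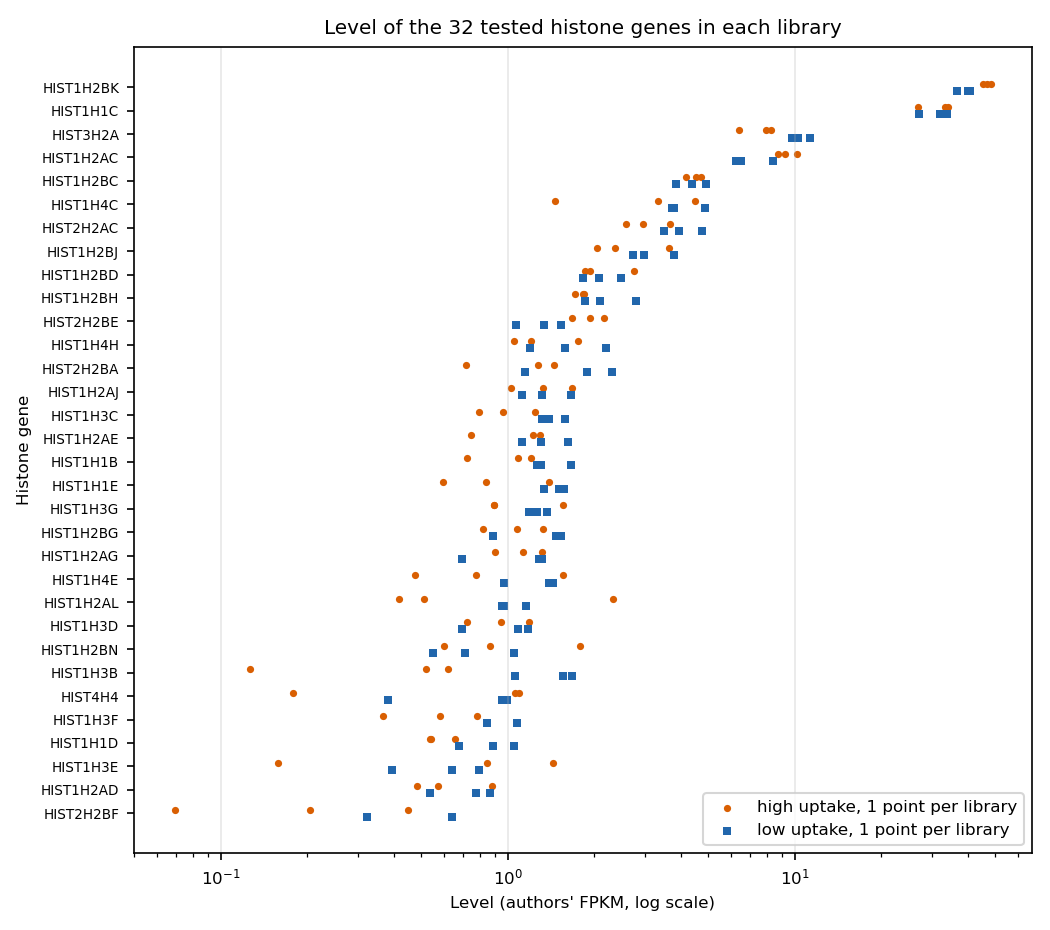
Level of each of the 32 tested histone genes in FPKM (log axis), with 1 point per library, circles for high uptake and squares for low uptake, ordered by mean level. HIST1H2BK and HIST1H1C stand alone at 26.9 FPKM or more, and for most genes around 1 FPKM the points of both groups interleave.

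The question the design puts to these genes is whether cells that took up more peptide differed in histone mRNA from cells that took up less. No member passed the threshold of 0.05 on the adjusted p of edgeR's quasi-likelihood test (0 of 32), where 4.29% of all tested genes did. DESeq2, which gave an adjusted p for 25 of them, and limma also called 0 members, beside 5.93% and 4.13% of all genes they tested. At an unadjusted p under 0.05, 6 of the 32 were counted, 3 higher and 3 lower in high uptake, beside 18.4% of all tested genes (10.4% higher and 7.97% lower). The count lies near this background in each direction. Some other settings, given below, called members. With the replicate number as a block, 3 were called higher and 2 lower, beside 21.8% of all tested genes. With the trend with GC content removed, 2 were called higher and 2 lower, beside 17.1%. Removal of the length trend, no filter on low counts, and leaving out high replicate 3 or both libraries numbered 2 called 1 each. Nothing in the labels says that the libraries came from separate cultures, so these p-values measure only the spread between the samples, which may be technical. Standard errors of the log2 fold change were 0.0872 to 0.65 for the tested members, with a median of 0.333. A typical member could thus differ by a moderate or larger amount without passing. HIST1H3B did not pass at a log2 fold change of -1.84 (SE 0.477).

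The fitted log2 fold change was below 0, meaning lower in high uptake, for 23 of the 32 tested members, whereas it was below 0 for 50.7% of all tested genes. The median over the members was -0.28, and over all tested genes -0.00. Among the 22 tested members under 1 CPM on average, 19 were below 0 (median -0.29). Among the 10 tested members of at least 1 CPM on average, 4 were below 0 (median 0.05). The members' median was -0.44 without high replicate 3, -0.16 without high replicate 4, -0.16 with the trend with gene length removed and 0.08 over the 7 members with at least 50 counts in at least 3 libraries. Among the 22 members that reached the minimum in all 6 libraries, 15 were below 0, and since other members could enter through the group where they were higher, these counts are a description of the members that passed. All high uptake values lay above all low uptake values for 3 members (13.0% of all tested genes) and below them for 5 members (11.4% of all tested genes). In bulk RNA from sorted cells, a difference in the share of cells in S phase cannot be told apart from one in histone mRNA per cell.

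**Figure D2:**
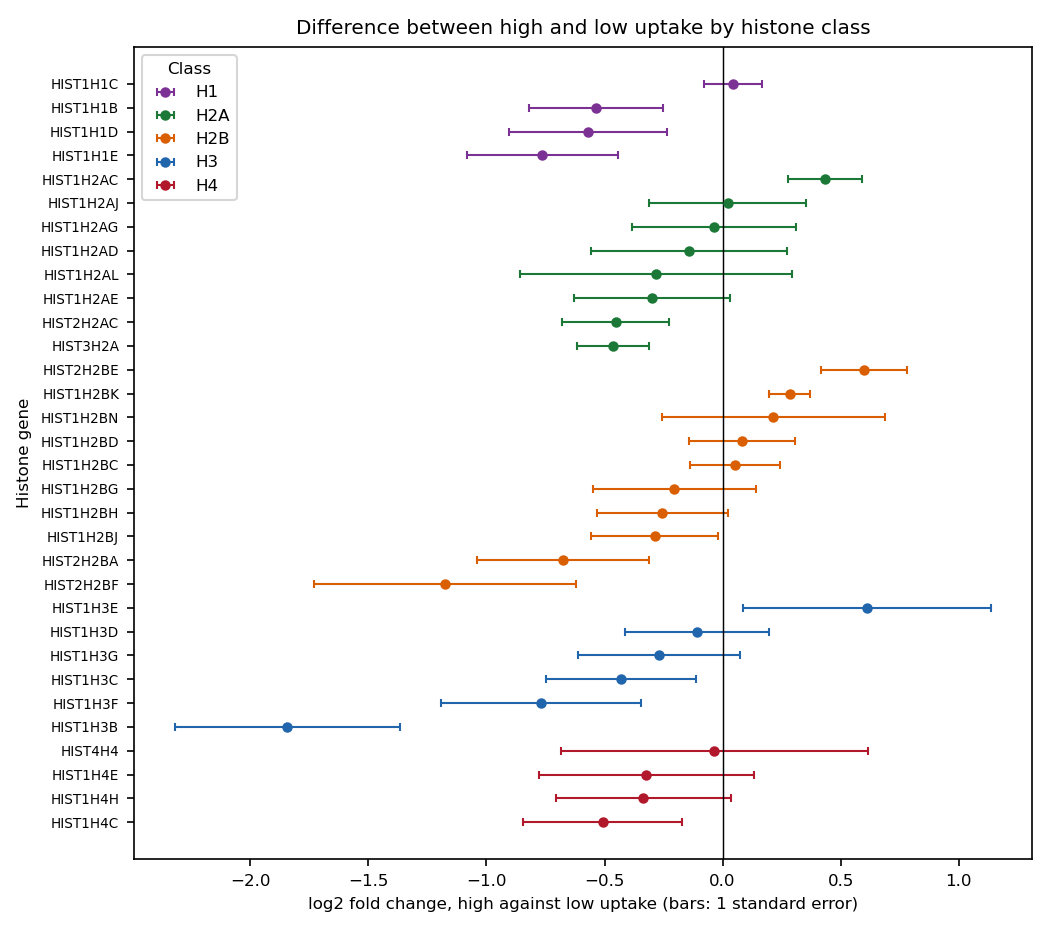
Log2 fold change of high against low uptake for the 32 tested members, grouped and coloured by histone class, with bars of 1 standard error. Most points lie left of 0, with HIST1H3B at -1.84 the farthest, while HIST2H2BE, HIST1H2AC, HIST1H2BK and HIST1H3E lie right of 0 by more than 1 standard error.

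The summed level of all 73 members did not separate the groups. It was 92.4, 105.3 and 100.9 CPM in high uptake replicates 2, 3 and 4, and 89.1, 98.3 and 97.9 CPM in the low uptake replicates of the same numbers. The means were 99.5 ± 6.58 and 95.1 ± 5.19 CPM (SD, n = 3 each), a log2 ratio of 0.06. The replicate numbered 2 was the lowest of its group on both sides. The sign of this ratio rested on 1 gene, since without HIST1H2BK it was -0.06. Without the 5 members of highest mean CPM, the other 68 members summed to 21.2, 27.6 and 21.5 CPM in high uptake and 28.7, 28.9 and 26.8 CPM in low uptake, a log2 ratio of -0.27 with overlapping groups.

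The classes are taken next from the linker to the core. H1 genes summed to 21.7, 27.6 and 26.8 CPM in high uptake and 22.6, 26.5 and 27.8 CPM in low uptake (25.4 ± 3.18 against 25.6 ± 2.72 CPM, SD, n = 3 each). The log2 ratio of -0.014 took either sign without single libraries, from -0.098 without low replicate 2 to 0.086 without high replicate 2. Nearly all of this was HIST1H1C, with 19.9, 24.8 and 25.0 CPM against 19.5, 23.4 and 24.7 CPM. Its log2 fold change was 0.04 (SE 0.124 and adjusted p = 0.903), and it was -0.013 without high replicate 3 or high replicate 4 and -0.061 without low replicate 2. The other 3 tested H1 genes were all lower on average in high uptake. HIST1H1E stood at 0.470, 1.11 and 0.660 CPM in high uptake and 1.16, 1.05 and 1.22 CPM in low uptake. Its high replicate 3 fell among the low uptake values, and the log2 fold change was -0.76 (SE 0.319 and adjusted p = 0.228), or -0.493 without high replicate 2. HIST1H1B had 0.866, 0.965 and 0.570 CPM against 1.29, 1.00 and 1.03 CPM, with no overlap but an adjusted p of 0.353. HIST1H1D had a log2 fold change of -0.57 (SE 0.334).

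H2A genes summed to 12.6, 16.0 and 13.3 CPM in high uptake and 15.03, 15.41 and 15.21 CPM in low uptake. The groups overlapped, with means of 13.9 ± 1.77 and 15.2 ± 0.188 CPM (SD, n = 3 each), and the 3 high uptake values were the more scattered. The log2 ratio of -0.125 moved to -0.057 when high replicate 2 was left out and to -0.233 for high replicate 3. The members of this class with most counts differed in opposite directions. HIST1H2AC, of the HIST1 cluster, was at 4.80, 5.64 and 5.07 CPM in high uptake and 3.49, 3.41 and 4.55 CPM in low uptake. All high values were above all low values, and the log2 fold change was 0.43 (SE 0.157 and adjusted p = 0.161). HIST3H2A, the only H2A gene of the HIST3 cluster, was at 3.19, 4.16 and 3.93 CPM in high uptake and 4.76, 5.59 and 5.04 CPM in low uptake. Here all high values were below all low values, and the log2 fold change was -0.46 (SE 0.154 and adjusted p = 0.124). Both genes carry the same stem-loop, as the sites above show. Of the other 6 tested H2A genes, 5 had a log2 fold change below 0.

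H2B genes made up 51.0% of the summed level of all members. Their sum was 51.6, 53.5 and 55.3 CPM in high uptake and 42.7, 48.5 and 45.9 CPM in low uptake, so that all high values were above all low values. The means were 53.5 ± 1.85 and 45.7 ± 2.87 CPM (SD, n = 3 each), a log2 ratio of 0.23. HIST1H2BK carried most of this difference, with 39.5, 38.7 and 40.6 CPM in high uptake and 30.3, 34.0 and 33.4 CPM in low uptake. Its log2 fold change was 0.28 (SE 0.0872 and adjusted p = 0.0977). Without it, the class sum had a log2 ratio of 0.09.

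HIST2H2BE, an H2B gene of the HIST2 cluster, was at 3.76, 4.38 and 4.80 CPM in high uptake and 2.33, 2.95 and 3.37 CPM in low uptake. Its groups did not overlap either, and the log2 fold change was 0.60 (SE 0.181 and adjusted p = 0.0946). HIST1H2BD, whose site above holds another of the 4 stem-loops, did not separate the groups. It had 1.68, 1.63 and 2.37 CPM in high uptake and 1.76, 2.14 and 1.56 CPM in low uptake, with a log2 fold change of 0.08 (SE 0.223) that became -0.122 without high replicate 4 and -0.003 without low replicate 4. The other 7 tested H2B genes had log2 fold changes from -1.17 to 0.22. The lowest of these was HIST2H2BF, with 0.0743, 0.223 and 0.480 CPM against 0.673, 0.682 and 0.342 CPM, whose groups overlapped (adjusted p = 0.291).

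H3 genes summed to 3.69, 4.53 and 3.30 CPM in high uptake and 4.66, 4.27 and 4.94 CPM in low uptake, with overlap. The means were 3.84 ± 0.627 and 4.62 ± 0.334 CPM (SD, n = 3 each), a log2 ratio of -0.27 that moved to -0.170 when high replicate 4 was left out and to -0.403 for high replicate 3. HIST1H3B had the smallest p of all members, but it reached the minimum for the test in low uptake libraries alone. The gene could thus enter the test only with a difference. It received 10, 4 and 2 counts in high uptake and 28, 11 and 16 counts in low uptake, which is 0.248, 0.297 and 0.0600 CPM against 0.724, 0.500 and 0.782 CPM. All high values were below all low values, and the log2 fold change was -1.84 (SE 0.477 and adjusted p = 0.0543). The gene fell under the threshold in some other settings: the adjusted p was 0.021 with no filter on low counts, 0.0208 with the trend with GC content removed, 0.0387 without high uptake replicate 3 and 0.0261 without either library numbered 2. The remaining leave-one-out values were from 0.0717 to 0.178.

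The groups also did not overlap for HIST1H3C, with 0.446, 0.371 and 0.570 CPM against 0.595, 0.727 and 0.636 CPM, nor for HIST1H3F, with 0.173, 0.371 and 0.270 CPM against 0.388, 0.500 and 0.391 CPM. Their adjusted p-values were 0.521 and 0.366. HIST1H3D had the highest mean CPM of the class, with 0.668, 1.11 and 0.870 CPM in high uptake and 0.983, 0.636 and 1.08 CPM in low uptake. These values interleaved, and the log2 fold change of -0.11 (SE 0.305) became 0.071 without high replicate 2 and 0.016 without low replicate 4. HIST1H3E was the only tested H3 gene with a log2 fold change above 0 (0.61, SE 0.526).

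H4 genes summed to 2.70, 3.71 and 2.13 CPM in high uptake and 4.11, 3.64 and 4.11 CPM in low uptake. Only high uptake replicate 3 reached into the low uptake range. The means were 2.85 ± 0.801 and 3.95 ± 0.274 CPM (SD, n = 3 each), a log2 ratio of -0.47 that moved to -0.303 when high replicate 4 was left out and to -0.711 for high replicate 3. HIST1H4C, the H4 gene with most counts, had 1.31, 1.78 and 0.570 CPM in high uptake and 1.86, 1.45 and 1.47 CPM in low uptake. Its log2 fold change was -0.51 (SE 0.337 and adjusted p = 0.467), and it ranged from -0.125 without high replicate 4 to -0.764 without high replicate 3. HIST1H4H, shown above with the stem-loop found in H4 genes alone, had 0.396, 0.668 and 0.450 CPM against 0.440, 0.818 and 0.587 CPM, a log2 fold change of -0.34 (SE 0.370) that became -0.080 without low replicate 3, -0.181 without high replicate 2, -0.504 without high replicate 3 and -0.592 without low replicate 2. All 4 tested H4 genes had a log2 fold change below 0, and none had an unadjusted p under 0.05.

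**Figure D3:**
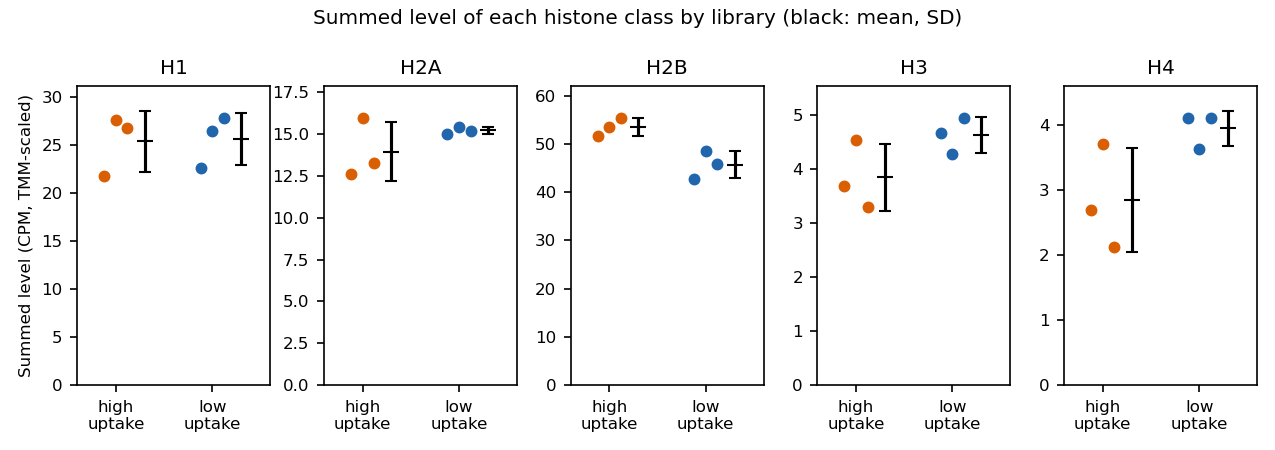
Summed level of each histone class in CPM, with 1 point per library (high uptake left, low uptake right) and the mean with 1 SD in black; each panel has its own axis from 0. The groups are apart only for H2B, at 51.6 to 55.3 CPM in high uptake and 42.7 to 48.5 CPM in low uptake.

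By cluster, HIST1 genes summed to 83.2, 93.0 and 88.2 CPM in high uptake and 77.2, 84.9 and 85.9 CPM in low uptake. HIST2 genes summed to 5.87, 7.64 and 8.25 CPM against 6.96, 7.32 and 6.45 CPM. Both pairs of groups overlapped, and the log2 ratio of HIST2, 0.070, moved to -0.033 when high replicate 4 was left out and to 0.202 for high replicate 2. Of the tested members, 18 of 26 in HIST1 and 3 of 4 in HIST2 had a log2 fold change below 0. HIST3 was almost wholly HIST3H2A. The single HIST4 gene, HIST4H4, had 0.0743, 0.445 and 0.450 CPM in high uptake and 0.155, 0.409 and 0.391 CPM in low uptake, low in both libraries numbered 2.

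Several members cannot be measured apart from near-identical copies. HIST2H2AA3 and HIST2H2AA4 had the same count in each library (0, 0 and 2 in high uptake, 1, 1 and 0 in low uptake), as did HIST2H4A and HIST2H4B (0 in each high uptake library, 1 in each low uptake library) and HIST2H3A and HIST2H3C (1 count in all). All 50-base stretches of HIST2H2AA3 and 97.5% of those of HIST2H4A also occur in the partner gene. No fold is given for these genes, which are at or under 3 counts in every library. For 6 members no 50-base stretch is unique in the annotated transcripts. HIST1H3D is among them, since another annotated gene contains its annotated transcript whole. For HIST1H2BK 25.9% of stretches are unique, the others being shared with 10 genes that include HIST1H2BJ, HIST1H2BC and HIST2H2BF. The annotated transcript covers only the coding part of HIST1H2BK, with 381 bases, whereas the counted gene model has 839. For HIST1H3D these lengths are 411 and 921 bases, so the shares describe only a part of either counted gene. How reads matching several genes were counted is not given in the sources used here. The levels of HIST1H2BK and HIST1H3D are therefore uncertain. By contrast, HIST1H3B, HIST1H1C, HIST1H1E and HIST1H4C share no such stretch of their annotated transcripts with another gene.

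The removal of each library's trend with GC content brought members past the threshold. HIST2H2BE and HIST1H2BK were then called higher and HIST3H2A and HIST1H3B lower, while 17.1% of all tested genes were called. With the trend with gene length removed, HIST1H2BK alone was called (adjusted p = 0.0404), while 3.19% of all tested genes were called.

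The authors' deposited list of 2305 gene symbols, which carries no values, holds 5 of the members: HIST1H2AC, HIST1H2BK, HIST2H2BE, HIST1H3B and HIST3H2A. These are the members with the 5 smallest p-values of the edgeR test. The list holds 15.6% of the tested members and 15.8% of all tested genes. Of the list's tested symbols 97.4% had an unadjusted edgeR p under 0.05, and the list holds 83.8% of the genes that did.

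The genes that make and handle histones were set beside the members, from lists drawn up by function. Over all tested genes, 4.29% passed edgeR's threshold and 18.4% had an unadjusted p under 0.05 (10.4% higher and 7.97% lower). DESeq2 called 5.93% of the genes it tested and limma 4.13%. The counts below are read against these shares. Among replacement and variant histones, 0 of 11 tested genes passed edgeR's threshold (3 had an unadjusted p under 0.05), with a median of -0.03 on the log2 scale. DESeq2 called 1 of 17, H2AFZ, and limma 0 of 11. H2AFZ had 455, 410 and 438 CPM in high uptake and 530, 512 and 525 CPM in low uptake. All high values were below all low values, and the log2 fold change was -0.27 (SE 0.0706 and adjusted p = 0.0598). H2AFV, a close relative of H2AFZ, differed the other way, with a log2 fold change of 0.20 (SE 0.0778 and adjusted p = 0.204). H3F3B (-0.07) and H1F0 (0.19), a linker histone typical of cells that have stopped dividing, did not separate the groups.

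Of 14 genes of histone gene transcription, 0 passed in edgeR (2 at an unadjusted p under 0.05), while DESeq2 called 1, CCNE2, and limma 0. NPAT had a log2 fold change of 0.27 (SE 0.112 and adjusted p = 0.233). CCNE2, a cyclin whose kinase partner phosphorylates NPAT, was at 37.9, 26.9 and 33.5 CPM in high uptake and 25.3, 23.5 and 24.0 CPM in low uptake, a log2 fold change of 0.44 (SE 0.119 and adjusted p = 0.0630). Of 24 genes of histone pre-mRNA 3′ end processing, 0 passed in edgeR (3 at an unadjusted p under 0.05), 0 in DESeq2 and 0 in limma, and 19 had a log2 fold change below 0, with a median of -0.07. SLBP had a log2 fold change of -0.09 (SE 0.0902 and adjusted p = 0.640). The smallest p-values in that list were those of SNRPG (-0.34) and SNRPE (-0.35), core proteins shared with spliceosomal particles. Of 19 genes of histone mRNA decay, 0 passed in edgeR (2 at an unadjusted p under 0.05), 0 in DESeq2 and 0 in limma.

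Of 27 histone chaperones and import factors, 1 (3.7%, near the share of all genes) passed, and 3 were higher and 1 lower at an unadjusted p under 0.05. ASF1B was the one that passed and was higher, with a log2 fold change of 0.36 (SE 0.0909 and adjusted p = 0.0484). ASF1B carries newly made H3 and H4 to the replication fork, and DESeq2 called it as well. Its adjusted p was 0.0523 in limma and from 0.0798 to 0.183 in edgeR without each of the 6 libraries in turn. NPM1, a nucleolar chaperone, stood at -0.28 on the log2 scale (adjusted p = 0.114).

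Of 36 S phase genes, TYMS, which makes thymidylate for DNA synthesis, passed and was higher, with a log2 fold change of 0.35 (SE 0.0811 and adjusted p = 0.0370). At an unadjusted p under 0.05, 8 were higher and 0 lower, E2F8 among them (0.42, adjusted p = 0.0542), where 10.4% of all tested genes were higher and 7.97% lower, and 11 of the 36 had a log2 fold change below 0, with a median of 0.05. DESeq2 called 3 of the list higher (TYMS, E2F8 and CLSPN) and limma 1 (TYMS). Of 25 G2 and M phase genes, TOP2A (0.46, adjusted p = 0.0152) and UBE2C (0.35, adjusted p = 0.0321) were higher and CDC20 (-0.32, adjusted p = 0.0352) was lower, with a median of -0.02. At an unadjusted p under 0.05, 5 of the list were higher and 3 lower. DESeq2 called 2 higher and 2 lower, CCNB1 being the addition, and limma called 2 higher and 1 lower. Without single libraries the edgeR call of TOP2A was lost for low replicates 3 and 4 (adjusted p up to 0.0830), that of TYMS for high replicates 2 and 4 and low replicates 3 and 4 (up to 0.179), and those of UBE2C (up to 0.113) and CDC20 (up to 0.139) for every library but high replicate 3. The difference between these lists and the histone genes was not itself tested.

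**Figure D4:**
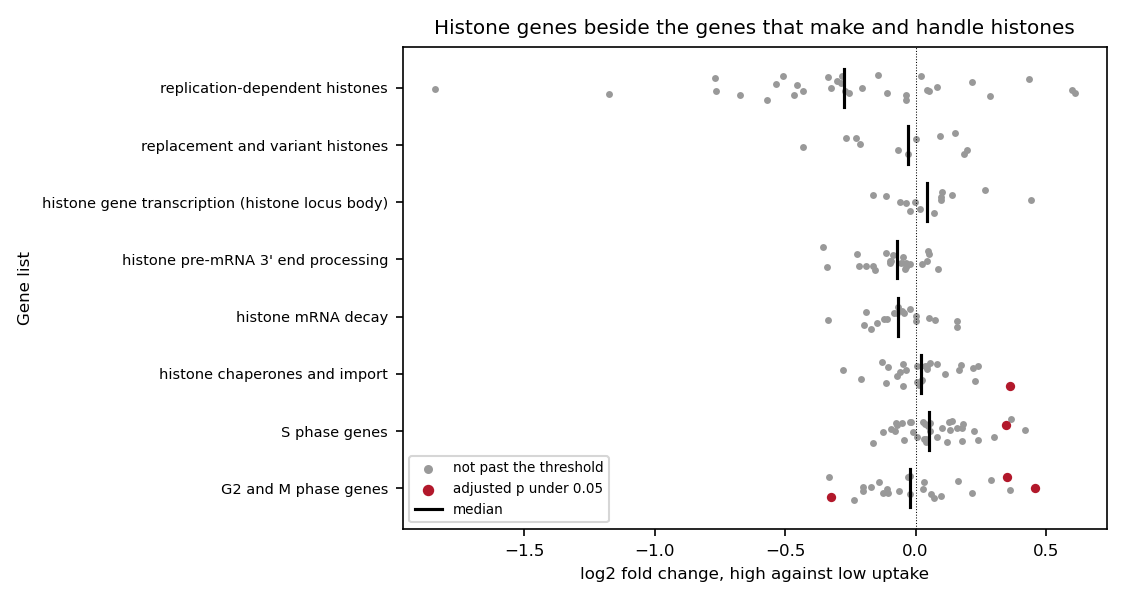
Log2 fold change of each tested gene, by list, with the replication-dependent histones at the top; the black line is the list's median and red points passed the adjusted p of 0.05. The histone genes spread from -1.84 to 0.61 around a median of -0.28, and the medians of the other lists lie closer to 0. Of the 32 histone genes, 22 are under 1 CPM on average, and the median standard error of the 32 is 0.333. The 10 histone genes of at least 1 CPM on average have a median of 0.05.

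The genes whose level most resembled the summed level of the members over the 6 libraries were CMTM3, CIC, YPEL3, FAM214B and BCL9L, with Pearson correlations of 0.992 to 0.996. The 6 points share their library depth and the low values of both replicates numbered 2, and none of these 5 genes passed the edgeR test between high and low uptake (adjusted p from 0.570 to 0.853).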

How the data were processed

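Read counts per gene symbol were deposited for 6 libraries, beside FPKM and TPM columns that the authors calculated, per the file headers. Tools named in the submitters' processing notes are fastp, STAR and featureCounts, with the build hg19. Libraries came from total RNA (RNeasy Micro, NEBNext Ultra II directional), per the labels' protocols. Neither annotation nor strand setting is given in the sources used. Genes were filtered with filterByExpr of edgeR 4.0.16 (minimum count 10), which left 14598 of 25680, scaled by TMM and tested with edgeR's quasi-likelihood test, two-sided, Benjamini-Hochberg adjusted over all tested genes. The standard error is the log2 fold change divided by the square root of F. CPM values are TMM-scaled, and class sums have no test. DESeq2 1.42.0 and limma 3.58.1 were alternatives. The fit was also run on simulated counts as a check of the code.

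The members and lists were chosen with earlier results of these data known. A cell type marker of the lists is not reported here. Named genes are, per class, the tested member of highest mean CPM and that of smallest p, 2 genes of smallest p per list, and genes fixed by name. HIST1H1B, HIST1H1D, HIST1H3C, HIST1H3E, HIST1H3F, HIST2H2BF, HIST4H4, CCNB1, CDC20, CLSPN, SNAP25 and SPARC were named after their values were seen. H2AFY, H1FX and H3F3A, given with their levels, and HIST1H2AG, given for its stem-loop, are also outside the naming rule. GENCODE 29 (GRCh38) transcripts were matched by symbol for all 73 members and no coordinates were used, since the files are in hg19. Depth, from 13712263 to 40742857 counts, limits precision for genes of a few counts.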

Additional observations from a re-analysis of the deposited data

How the results depend on the processing

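The main fit called 0 members either way and 626 genes in all (4.29% of those tested). Removal of the GC trend gave 2 members higher and 2 lower (2493 genes, 17.1%), with 57.2% of the called genes higher against 70.6%. Removal of the length trend gave 1 member higher (465 genes, 3.19%). No filter on low counts gave 1 of 65 members lower (889 genes, 4.31%). Leaving out both libraries numbered 2 gave 1 of 26 members lower (788 genes, 5.51%). Leaving out 1 library gave 0 to 1 members lower and 232 to 738 genes (1.55% to 4.92%). The replicate numbers do not pair the libraries by the labels. Same-numbered libraries deviated from their group means with correlations of 0.452, 0.304 and 0.087. For differently numbered libraries the correlations were from -0.395 (high replicate 3 with low replicate 2) to 0.216 (high replicate 3 with low replicate 4). With a replicate block, 3 of 32 members were higher and 2 lower (3176 genes, 21.8%). The block with the length trend also removed gave 3 and 1 (2810 genes, 19.2%). The block with the GC trend also removed gave 3 and 2 (4014 genes, 27.5%). HIST1H3B was among the lower members in each (adjusted p = 0.00481, 0.0116 and 0.00826). It reached the minimum for the test in low uptake libraries alone, so these calls are no independent support. Leaving out 1 library moved HIST1H1C from -0.061 to 0.151, HIST1H3D from -0.279 to 0.071 and HIST1H2BD from -0.122 to 0.199, and HIST1H3D was 0.15 without both libraries numbered 2. Without its member of highest mean CPM, the log2 ratio of the summed level was -0.061 for all members, -0.53 for H1, -0.38 for H2A, 0.086 for H2B, -0.044 for HIST1, -0.45 for HIST2 and -1.86 for HIST3 (8 counts). From the authors' TPM, HIST2 was at -0.18 against 0.07. Where no value shows it, the cause was not tested.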
